A study of Homo sapiens with 5 samples.

Results

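Enzymes that modify transfer RNA were examined in ribosome footprints of HCT116 cells, a human colorectal carcinoma line. The genes were chosen by symbol: families TRMT (without TRMT112), ADAT, PUS, ELP, CTU, DUS, ALKBH, NSUN, OSGEP, TYW, QTRT and THUMPD, with TRIT1 and FTSJ1. The rule found 64 of the 17297 genes in the count table, and 63 of them passed the filter on low counts among 11991 genes tested. TRMT9B did not pass, with 0 and 0 counts in the WT libraries and 2, 1 and 1 in the MUT libraries. The label holds for most but not all of these genes. Some ALKBH and NSUN proteins act on DNA, mRNA, rRNA or protein, and DUS4L-BCAP29 is a readthrough gene that joins DUS4L to its neighbour.

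The 5 libraries fell into groups labelled WT (n = 2), unedited cells, and MUT (n = 3), cells made homozygous by CRISPR/Cas9 for N106S, which puts serine in place of asparagine in eIF6. This factor binds the large ribosomal subunit and keeps it from joining the small one. The mutants are described as clones, without saying which library came from which clone or whether libraries of a group were separate cultures. The p-values therefore measure the spread between these libraries, and the mutation cannot be told apart from other differences between edited and unedited cells. Footprints came from MNase-digested extract, from the gradient fraction of single 80S ribosomes, so a gene's count follows its mRNA level as well as the ribosomes on each mRNA.

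A tRNA carries many chemical changes, made one by one after transcription. Those at the wobble base of the anticodon and at the base beside it tune codon reading, while those in the body of the molecule help it to fold and protect it from decay. Most are made by dedicated enzymes in the nucleus or cytosol, and mitochondria use a partly separate set on their own tRNAs.

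WT replicate 1 was the shallowest library, at 2095217 counts, and MUT replicate 3 the deepest, at 3821176. No library looked like a copy of another, since chi-square per gene between pairs was 1.89 or more. Of 9 epithelial markers 6 were above 10 CPM (a count scaled to its library's total) in every library. CDH1 was at 20.9 to 21.5 CPM in WT and 8.91 to 12.6 CPM in MUT, and VIL1 and CLDN3 were at most 4.58 CPM. The epithelial markers moved in both directions. At an adjusted p under 0.05 in edgeR's test, EPCAM and CDH1 were lower in MUT (log2 fold change, MUT over WT, -0.50 and -0.90). By the same test KRT8 and KRT19 were higher (0.37 and 0.29), while KRT18, CLDN3, CLDN4 and CDX2 did not pass. Leukocyte, endothelial and fibroblast lists summed to at most 8.91 CPM in any library, and the neuronal list to 28.2 to 62.1 CPM, nearly all of it SYT1. EIF6 itself had 178 CPM in WT and 157 CPM in MUT on average and did not pass the test (log2 fold change, MUT over WT, -0.17, SE 0.0971); its count does not test for the edited base.

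Footprints on 7 tRNA modification enzymes rose in MUT and those on 4 fell, at an adjusted p under 0.05 in edgeR's quasi-likelihood test. The 7 were the tRNA methyltransferases TRMT2A, TRMT1, TRMT13 and FTSJ1, the dihydrouridine synthases DUS1L and DUS3L, and the oxygenase ALKBH1. The 4 were the methyltransferases TRMT61B, TRMT10C and TRMT5 and the threonylcarbamoyl transferase OSGEPL1. By their gene bounds on GRCh38.p14, the risers besides TRMT2A were TRMT1 at chr19:13104907-13116740, TRMT13 at chr1:100133163-100150496, FTSJ1 at chrX:48476199-48486364, DUS1L at chr17:82057506-82065804, DUS3L at chr19:5785140-5791163 and ALKBH1 at chr14:77672404-77708023. The genes that fell were TRMT61B at chr2:28849821-28870309, TRMT10C at chr3:101561868-101566446, TRMT5 at chr14:60971441-60981690 and OSGEPL1 at chr2:189746660-189763198. These changes were of modest size, from 1.28-fold to 1.74-fold up and from 1.3-fold to 1.48-fold down. No gene of the Elongator complex, the deaminases, the pseudouridine synthases or the queuosine enzymes passed (background 22.9% of all genes tested). These groups are small, with 2 to 6 tested genes each.

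The called share, 17.5% of 63, was below the 22.9% called among all genes tested. The 7 rises were 11.1% of the members, against 10.0% called higher in the whole table, and the 4 falls were 6.35%, against 12.9% called lower. The members' median log2 fold change was 0.071, beside 0.0024 for all genes tested, and the members ranged from -1.003 (NSUN7) to 0.80 (TRMT2A). All MUT libraries lay above all WT libraries for 21 members (33.3%, background 25.4%) and below them for 13 (20.6%, background 25.3%), so the groups did not overlap for 34 (54%, background 50.7%). An unadjusted p under 0.05 was found for 21 members, or 33.3%, against 35.8% of all genes. Without WT replicate 1 the members called were 4 higher and 3 lower, without WT replicate 2 they were 3 and 1, and without MUT replicate 1 they were 2 and 2. DESeq2 called 3 and 1, and scaling by library size only gave 11 and 3. In at least 1 alternative fit 20 of the 63 members, all of them uncalled, took the other sign.

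**Figure D1:**
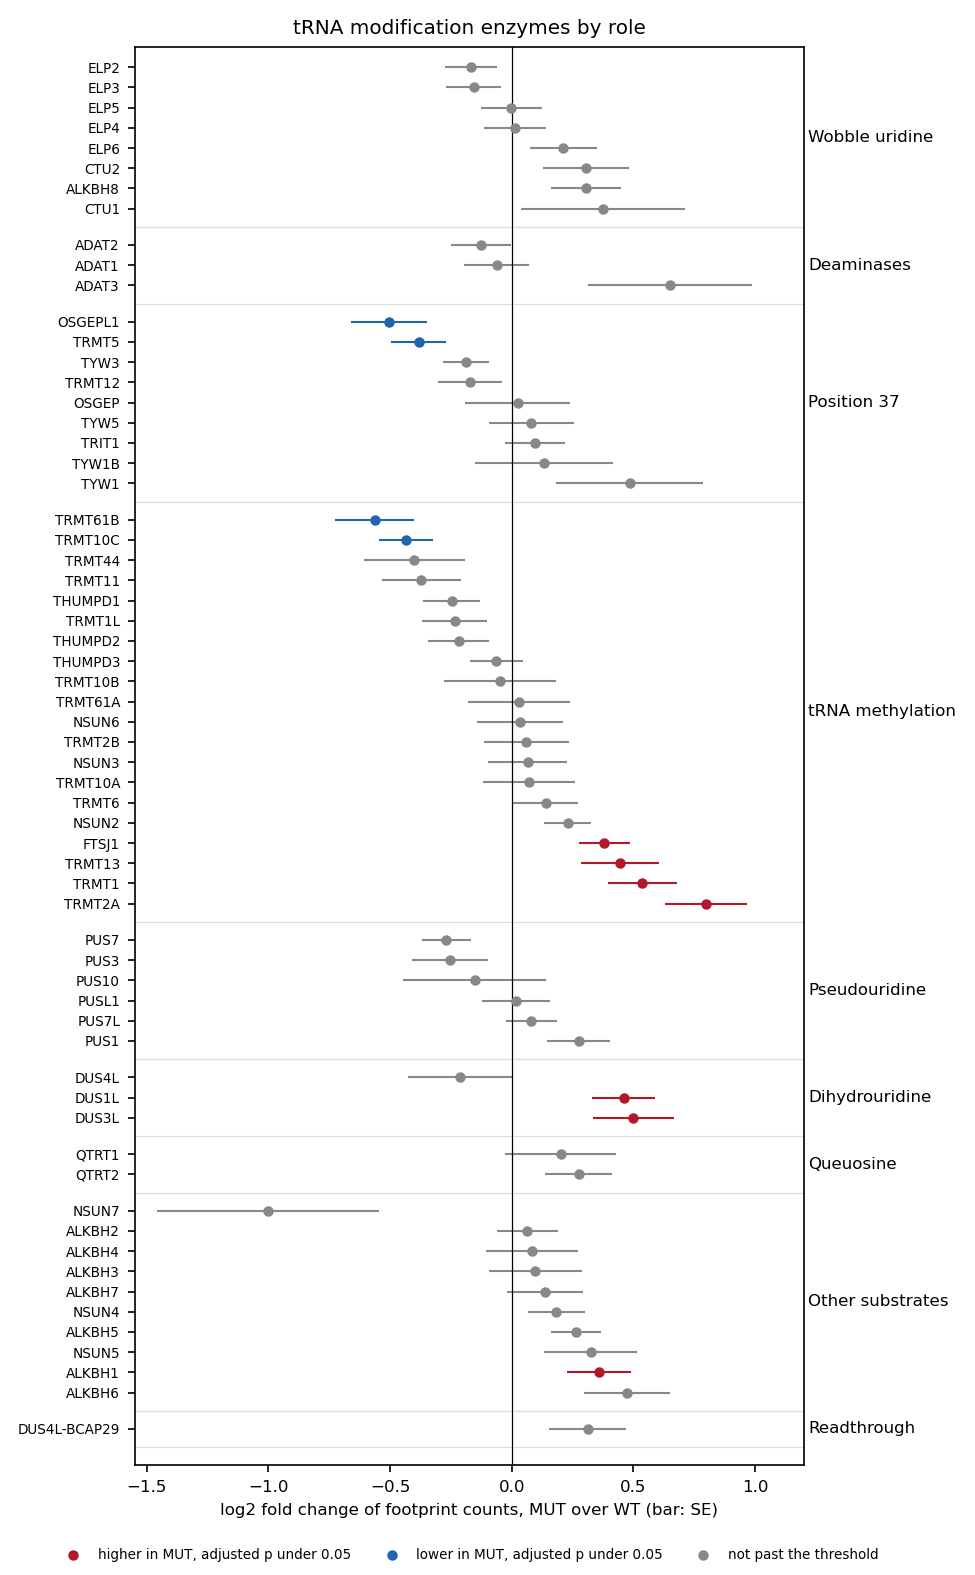
Log2 fold change of footprint counts (MUT over WT) for the tested members reported here, grouped by role, with bars showing the standard error of edgeR's fit. The 7 red points reach from 0.36 to 0.80 and the 4 blue points from -0.56 to -0.38, while the wobble uridine genes are all grey.

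As a whole, the members took 0.342% and 0.356% of all counts in the WT libraries and 0.375%, 0.372% and 0.383% in the MUT libraries. The MUT libraries were all higher, with means of 0.349% ± 0.0102 (SD, n = 2) and 0.376% ± 0.00566 (SD, n = 3). These are shares of raw totals, without TMM scaling. On that scale (library size only) the median log2 fold change was 0.14 for the members and 0.0745 for all genes tested, so the median over all genes was also positive. How this bears on the summed share was not tested. CPM is not divided by gene length, so it serves here to compare libraries and not to order genes. The members' mean CPM ran from 4.19 (NSUN7) to 219 (ALKBH5).

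Promoter sequence next to the start site is shown for 3 members that rose and 1 that fell, because these are the called members, among those with a RefSeq promoter entry, with the letters CCGGAAG, the core bound by ETS factors, on either strand in this stretch. The runs are the 150 bases before the RefSeq start on GRCh38.p14, on the gene's strand, with motif matches in capitals: ALKBH1 at chr14:77708024-77708173 (minus strand), DUS3L at chr19:5791164-5791313 (minus), TRMT13 at chr1:100133013-100133162 (plus) and TRMT10C at chr3:101561718-101561867 (plus).
ALKBH1: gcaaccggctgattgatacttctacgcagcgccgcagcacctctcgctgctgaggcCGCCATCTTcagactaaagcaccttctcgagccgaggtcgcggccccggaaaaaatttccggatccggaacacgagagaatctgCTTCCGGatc
DUS3L: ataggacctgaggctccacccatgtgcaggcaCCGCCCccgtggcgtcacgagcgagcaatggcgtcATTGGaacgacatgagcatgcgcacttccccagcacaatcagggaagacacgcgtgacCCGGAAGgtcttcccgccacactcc
TRMT13: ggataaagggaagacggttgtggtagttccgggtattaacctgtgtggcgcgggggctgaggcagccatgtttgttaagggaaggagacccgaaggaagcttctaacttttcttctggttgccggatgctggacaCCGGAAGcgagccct
TRMT10C: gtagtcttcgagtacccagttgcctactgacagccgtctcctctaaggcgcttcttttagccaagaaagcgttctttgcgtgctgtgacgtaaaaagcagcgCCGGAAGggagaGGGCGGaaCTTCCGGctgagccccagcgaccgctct
The match begins 10 bases before the start in ALKBH1, 25 in DUS3L and 15 in TRMT13, and TRMT10C has matches at 48 and at 28. In ALKBH1, and at the nearer TRMT10C match, the letters are on the opposite strand and read CTTCCGG. So they stood beside starts of genes that moved in opposite directions. RefSeq promoters were at hand for 52 members, and TRMT2A was the called member without one. Within the 250 bases before the start, on either strand, CCGGAAG was in 15 of these (28.8%) and in 16.7% of the promoters of 9764 tested genes. Among called members it was in 3 of 6 that rose and 1 of 4 that fell. The GC box GGGCGG was in 59.6% of members and 68% of tested genes, CCAAT in 34.6% and 35.2%, the E box CACGTG in 1.92% and 8.73%, and the YY1 letters AAGATGGCG in 1.92% and 0.993%. TATAAA was in 3.85% and 5.54%, and the NRF1 core in 0 members and 1.93%. The other capitals above are the YY1 letters in ALKBH1, a GC box in DUS3L and in TRMT10C, and CCAAT in DUS3L, of which only the TRMT10C match is on the gene's own strand.

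In the group of tRNA methyltransferases and their adaptors, without those of the base beside the anticodon, 4 of 20 tested rose (20%) and 2 fell (10%). Among all genes tested, 10.0% were called higher and 12.9% lower. Most of the group act on the body of the tRNA, but FTSJ1 and NSUN3 act in the anticodon loop. TRMT2A, which methylates a uridine in the T arm, had 21.0 and 28.1 CPM in WT and 45.2, 39.8 and 46.2 CPM in MUT. The groups were well apart, and it rose 1.74-fold (log2 0.80, SE 0.17, adjusted p 0.00159). It was the only member past the threshold in all 15 alternative fits. The gene (GRCh38.p14, chromosome 22, 20111875 to 20117226) overlaps the bounds of RANBP1, whose own log2 fold change was -0.23 and did not pass.

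TRMT1, which makes dimethylguanosine in the hinge of the tRNA, had 42.0 and 46.4 CPM in WT and 55.7, 72.2 and 65.2 CPM in MUT. It rose 1.45-fold (log2 0.54, SE 0.142, adjusted p 0.00803). Its call ended without WT replicate 1 (adjusted p 0.0821) or WT replicate 2 (0.0533). TRMT1L, its paralog, did not follow, with a log2 fold change of -0.23 and all MUT libraries below WT (adjusted p 0.215).

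TRMT13, a 2′-O-methyltransferase of the acceptor stem, had 47.4 and 35.0 CPM in WT and 49.6, 50.03 and 64.9 CPM in MUT. The highest WT library was close to the lowest MUT libraries, and the rise was 1.36-fold (log2 0.45, SE 0.161, adjusted p 0.0458). The call ended without WT replicate 2 (log2 0.22, adjusted p 0.53), without MUT replicate 1 (0.0677) or MUT replicate 3 (0.184), and in DESeq2 (0.156), limma-voom (0.0506) and the replicate block (0.117).

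FTSJ1, a 2′-O-methyltransferase of the anticodon loop that is mutated in X-linked intellectual disability, had 97.9 and 102 CPM in WT and 140.3, 120.1 and 132 CPM in MUT. All MUT libraries were higher, by 1.3-fold (log2 0.38, SE 0.105, adjusted p 0.011). Leaving out WT replicate 1, WT replicate 2 or MUT replicate 1 gave adjusted p of 0.0824, 0.0697 and 0.0686. WDR6, the partner of FTSJ1 at the wobble position, rose 1.28-fold, from 104 and 123 CPM in WT to 151, 153 and 137 CPM in MUT (adjusted p 0.0145). Without WT replicate 1 or MUT replicate 1 the WDR6 call ended (0.166 and 0.0648).

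In this group the genes that fell, TRMT10C and TRMT61B, act in mitochondria. TRMT10C, a subunit of the RNase P that trims mitochondrial tRNA precursors and a methyltransferase of those tRNAs, had 159 and 166 CPM in WT and 117, 141 and 103 CPM in MUT. It fell 1.35-fold (log2 -0.43, SE 0.112, adjusted p 0.00685), and only leaving out WT replicate 2 ended the call (0.12). Its partner in the complex, HSD17B10, had a log2 fold change of 0.20 (adjusted p 0.199). TRMT61B, which methylates adenosine in mitochondrial tRNAs, had 46.9 and 40.2 CPM in WT and 28.3, 26.3 and 32.8 CPM in MUT. Its MUT libraries were all lower, by 1.48-fold (log2 -0.56, SE 0.161, adjusted p 0.0138), and the call ended without WT replicate 1 (0.117) or MUT replicate 1 (0.0535) and in DESeq2 (0.059).

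Its cytosolic relatives TRMT61A and TRMT6, which form the methyltransferase complex for the same adenosine, had log2 fold changes of 0.030 and 0.14 and did not pass. NSUN2, the main tRNA cytosine methyltransferase and the best-counted of these genes, had 161 and 159 CPM in WT and 182, 197 and 183 CPM in MUT. The groups did not overlap, but its log2 fold change of 0.23 missed the threshold (adjusted p 0.0828), and it passed in 4 of 15 alternative fits. TRMT44 and TRMT11 had the next lowest values, at -0.40 and -0.37, with adjusted p of 0.166 and 0.1. The remaining methyltransferase genes and adaptors lay between -0.25 (THUMPD1) and 0.071 (TRMT10A).

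**Figure D2:**
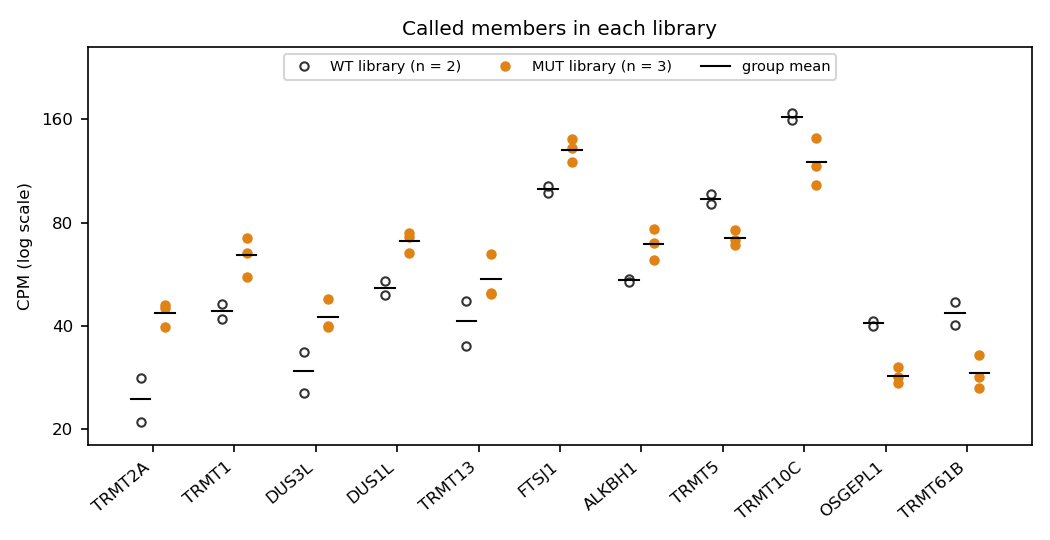
CPM of the 11 called members in each library on a log scale, with 2 WT libraries as open circles, 3 MUT libraries as filled circles and lines at the group means. In none of the 11 do the groups overlap (background 50.7% of all genes tested), but the 11 were chosen by the test on these same libraries. TRMT13 comes closest to overlap, with 47.4 CPM in WT replicate 1 and 49.6 CPM in MUT replicate 1.

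At the base beside the anticodon, 2 of 9 genes fell (22.2%, background 12.9%) and 0 rose (background 10.0%). OSGEPL1, which makes threonylcarbamoyl adenosine in mitochondrial tRNAs, had 41.5 and 39.9 CPM in WT and 28.3, 30.3 and 27.2 CPM in MUT. The libraries of each group lay close together, and the fall was 1.418-fold (log2 -0.50, SE 0.157, adjusted p 0.0227). The call ended without WT replicate 1 (0.0908), WT replicate 2 (0.109), MUT replicate 1 (0.0656) or MUT replicate 3 (0.0536), with log2 fold changes still between -0.53 and -0.46, and in DESeq2 (0.099). TRMT5, which methylates guanosine there in cytosolic and mitochondrial tRNAs, had 90.4 and 96.8 CPM in WT and 76.3, 71.1 and 69.0 CPM in MUT. It fell 1.3-fold (log2 -0.38, SE 0.113, adjusted p 0.0163), a call that ended without WT replicate 2 (0.178), with library size only (0.0503) and in DESeq2 (0.0715).

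OSGEP, which makes the same base as OSGEPL1 but in cytosolic tRNAs, had a log2 fold change of 0.025 (SE 0.216). It is the catalytic subunit of KEOPS, and 2 small subunits of that complex fell. TPRKB went from 79.9 and 105 CPM in WT to 66.5, 61.9 and 60.3 CPM in MUT, 1.49-fold lower (adjusted p 0.00183), and the call ended without WT replicate 2 (0.169). GON7 went from 28.5 and 29.1 CPM to 19.7, 18.2 and 20.5 CPM, 1.48-fold lower (adjusted p 0.0299). The GON7 call ended without either WT library (0.0827 and 0.17), without MUT replicate 1 (0.0692) or MUT replicate 2 (0.0851), with library size only (0.0572) and in DESeq2 (0.122). The kinase subunit TP53RK and LAGE3 did not pass, at 0.21 and 0.058, nor did YRDC, which makes the activated substrate, at 0.14.

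TRMT5 also makes the first step towards wybutosine. The TYW genes and TRMT12, which act after it in that pathway, did not pass, nor did TRIT1, which adds an isopentenyl group. TYW3, the best-counted of them, had 181 and 174 CPM in WT and 146, 157 and 163 CPM in MUT, all lower but with a log2 fold change of only -0.19 (adjusted p 0.157). TYW1 stood at 0.48 with 9.90 CPM on average and an SE of 0.303. TYW1 and TYW1B are near-identical copies, so how reads were split between them is uncertain.

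Of 9 genes that build the wobble uridine modification, 0 passed the threshold (background 22.9%), and 2 had an unadjusted p under 0.05 (background 35.8%). Elongator starts this pathway, ALKBH8 finishes the side chain, and CTU1 with CTU2 adds sulfur. Among Elongator subunits, ELP2, ELP3 and ELP6 stood at -0.17, -0.16 and 0.21, and ELP4 and ELP5 lay near 0 and changed sign between fits. ELP2, the best-counted, had 106 and 127 CPM in WT and 109, 106 and 99.0 CPM in MUT, with overlapping groups. CTU1, CTU2 and ALKBH8 stood at 0.38, 0.30 and 0.30, and CTU1 was thinly counted, with 10 to 52 counts a library.

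Factors that serve these enzymes did include calls. KTI12, an ATPase that associates with Elongator, had 26.0 and 23.2 CPM in WT and 39.1, 35.5 and 35.2 CPM in MUT, a 1.5-fold rise (adjusted p 0.0156). URM1, the ubiquitin-like protein that carries the sulfur to CTU1 and CTU2, had 59.9 and 54.3 CPM in WT and 74.8, 76.1 and 72.4 CPM in MUT, a 1.31-fold rise (adjusted p 0.0239). KTI12 lost its call without WT replicate 2 (0.164) or MUT replicate 1 (0.064) and in DESeq2 (0.0733). URM1 lost its call without any 1 of WT replicate 1 (0.0517), WT replicate 2 (0.215), MUT replicate 1 (0.0718) and MUT replicate 2 (0.0546), and in DESeq2 (0.0991). MOCS3, which activates URM1, had a log2 fold change of 0.38 and an adjusted p of 0.106.

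**Figure D3:**
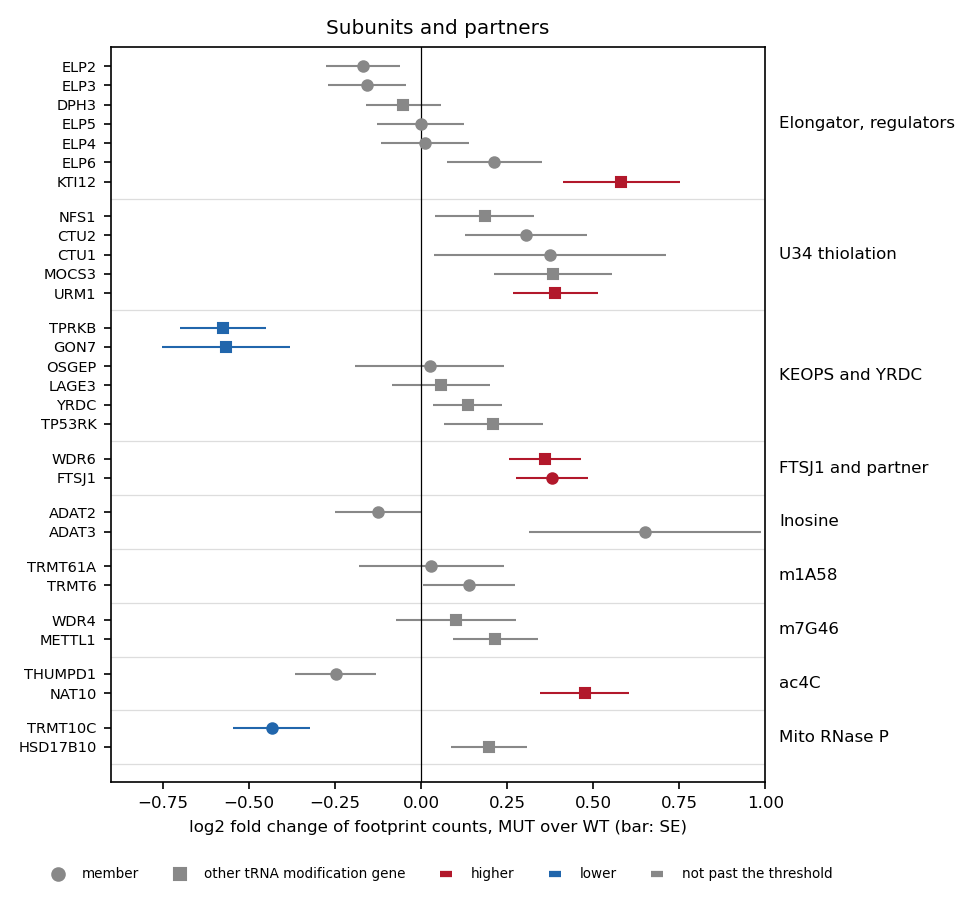
Log2 fold change (MUT over WT, bars SE) of subunits and partners of 9 complexes or enzyme pairs, with members as circles and other tRNA modification genes as squares. TPRKB and GON7 are the blue squares at -0.57 in the KEOPS panel, whose other genes lie between 0.025 and 0.21, and the Elongator subunits lie on both sides of 0 with KTI12 at 0.58.

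Of the 3 dihydrouridine synthases that the rule took in (DUS1L, DUS3L and DUS4L), 2 rose (background 10.0%). A further one outside the rule, DUS2, was tested in the same fit and did not pass (log2 -0.024, SE 0.228, adjusted p 0.955). DUS1L had 53.9 and 49.4 CPM in WT and 72.5, 65.3 and 74.4 CPM in MUT, all higher, by 1.38-fold (log2 0.46, SE 0.129, adjusted p 0.0118). DUS3L had 25.5 and 33.7 CPM in WT and 40.1, 47.9 and 39.8 CPM in MUT, 1.41-fold higher (log2 0.50, SE 0.166, adjusted p 0.0317). Both enzymes reduce uridines in the loops of cytosolic tRNAs. The DUS1L call ended without WT replicate 2 (0.148) or MUT replicate 1 (0.0512) and in DESeq2 (0.0551). The DUS3L call ended without WT replicate 1 (0.256), MUT replicate 1 (0.0601) or MUT replicate 2 (0.115) and in DESeq2 (0.11). DUS4L went the other way in value, at -0.21 (SE 0.214), and did not pass. The readthrough gene DUS4L-BCAP29, whose reads cannot be told apart from those of DUS4L or BCAP29 where they overlap, stood at 0.31 (adjusted p 0.155). It had 33.6 CPM in WT and 41.1 CPM in MUT on average, while BCAP29 itself had 0.163 and 0.212 CPM. Which of these genes its reads came from is therefore uncertain, and its value need not bear on a dihydrouridine synthase.

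None of the 6 pseudouridine synthases passed (background 22.9%), and 2 (PUS7 and PUS1) had an unadjusted p under 0.05 (background 35.8%). PUS7, the best-counted, had 171 and 153 CPM in WT and 131, 144 and 126 CPM in MUT, all lower. Its log2 fold change of -0.27 (SE 0.0995) missed the threshold narrowly (adjusted p 0.0528), and it passed without MUT replicate 2 (0.0376) and with robust dispersion (0.0457). PUS1, which acts in nucleus and mitochondria, stood at 0.28 with all MUT libraries higher (adjusted p 0.131). Outside the rule, RPUSD1, of the same enzyme superfamily, had 31.0 and 31.1 CPM in WT and 62.7, 61.1 and 57.7 CPM in MUT. That 1.95-fold rise (log2 0.96, SE 0.144, adjusted p 5.15e-05) was larger than that of any member and passed in all 15 alternative fits.

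The 3 deaminases that make inosine did not pass (background 22.9% called), too few genes to read as a trait of the group. ADAT2, the catalytic subunit of the wobble deaminase, had 69.9 and 70.0 CPM in WT and 62.7, 59.0 and 70.6 CPM in MUT, with overlapping groups. Its partner ADAT3 was thinly read, at 14 and 17 counts in the WT libraries against 31, 35 and 39 in the others. That was a log2 fold change of 0.65 with an SE of 0.337 (adjusted p 0.169), and ADAT3 lies within the bounds of SCAMP4, at 0.39. QTRT1 and QTRT2, which together insert queuine at the wobble position, stood at 0.20 and 0.27 with overlapping groups. QTRT2 had 50.4 and 72.6 CPM in the WT libraries, a wide gap, and 68.4 to 80.8 CPM in MUT, and it passed only without WT replicate 2 (log2 0.60, adjusted p 0.0395).

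Of 10 members that act wholly or partly outside tRNA, 1 rose (10%, background 10.0%). ALKBH1, which demethylates tRNA and oxidises a wobble cytosine in mitochondria, had 54.9 and 53.6 CPM in WT and 70.0, 62.1 and 76.5 CPM in MUT. It rose 1.28-fold (log2 0.36, SE 0.131, adjusted p 0.0487). This call held in 7 of 15 alternative fits. It ended without WT replicate 1 (0.14), WT replicate 2 (0.231), MUT replicate 1 (0.12) or MUT replicate 3 (0.144), in DESeq2 (0.161) and limma-voom (0.0656), and with the replicate block (0.101). ALKBH5, which removes methyl marks from mRNA, had 211 and 181 CPM in WT and 237, 214 and 252 CPM in MUT, with an adjusted p of 0.0598. It passed in 7 of the 15 alternatives, among them library size only (0.0162) and leaving out WT replicate 1 (0.0484) or MUT replicate 2 (0.0296). ALKBH6, at 0.47, was also close (adjusted p 0.0543) and passed in 5. NSUN7 was the lowest member in value, at -1.003 with an SE of 0.456, from 13 and 17 counts in WT to 10, 8 and 14 in MUT (adjusted p 0.114). The rRNA methyltransferases NSUN5 and NSUN4 stood at 0.32 and 0.18.

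The members known to act mainly in mitochondria were drawn together after their values were seen. Of these 7, TRMT61B, OSGEPL1 and TRMT10C fell (background 12.9% called lower). NSUN4, ALKBH7, NSUN3 and TRMT2B lay between 0.059 and 0.18 and did not pass, NSUN3 and TRMT2B with another sign in some fits. The fall of 3 genes was therefore not shared by all enzymes of that compartment.

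Beyond the rule, 39 of 40 further tRNA modification genes were tested. Of these, 5 rose (12.8%, background 10.0%) and 3 fell (7.69%, background 12.9%). Their median log2 fold change was 0.14, beside 0.0024 for all genes tested. Besides RPUSD1, KTI12, URM1, WDR6, TPRKB and GON7, the called genes were NAT10 and DTWD1. NAT10, which acetylates cytidine in tRNA and rRNA, rose from 67.4 and 82.7 CPM to 91.3, 122 and 102 CPM (1.39-fold, adjusted p 0.0098), a call lost without WT replicate 1 (0.153). Its tRNA adaptor THUMPD1 stood at -0.25 (adjusted p 0.132), and its bounds overlap those of ACSM3, which fell (log2 -0.95, adjusted p 0.00701). DTWD1, which adds an aminocarboxypropyl group to uridine, fell from 111 and 102 CPM to 77.3, 78.2 and 86.5 CPM (1.31-fold, adjusted p 0.0119), a call lost without WT replicate 1 (0.097) or MUT replicate 1 (0.0589). TRMT112, the activator of several methyltransferases, stood at -0.14 (adjusted p 0.287). QNG1, listed in the table under the older name C9orf64, was too thinly counted to test.

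The direction of change followed how crowded the gene's neighbourhood was, in the members as in the whole table. Density was taken as the number of protein-coding genes, the gene included, with midpoints within 500 kb on either side. Of 19 members with 20 or more such genes, 5 rose and 0 fell, with a median log2 fold change of 0.304. Of 27 members with up to 10, 0 rose and 3 fell, with a median of -0.125. Among all tested genes the same classes had medians of 0.155 and -0.0992, with 16.2% called higher and 5.15% lower in the dense class and 5.88% and 18.9% in the sparse one. Spearman's rho between density and log2 fold change was 0.429 over the 63 members and 0.269 over 11975 genes with a position, given as a description, since genes share libraries and neighbourhoods.

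With the trend of gene span and density removed from each library, 5 members were higher and 3 lower. TRMT2A (log2 0.69, adjusted p 0.00536), TRMT13 (0.0413), TRMT10C (0.0196), OSGEPL1 (0.0367) and TRMT61B (0.0357) kept their calls. TRMT1 (0.0914), FTSJ1 (0.152), DUS1L (0.21), DUS3L (0.108), ALKBH1 (0.0667) and TRMT5 (0.0613) no longer passed. Their log2 fold changes moved by unequal amounts: from 0.36 to 0.34 in ALKBH1, -0.38 to -0.30 in TRMT5, 0.50 to 0.39 in DUS3L, 0.54 to 0.35 in TRMT1, 0.38 to 0.21 in FTSJ1 and 0.46 to 0.23 in DUS1L. Calls were also lost for WDR6 (0.272), URM1 (0.207) and DTWD1 (0.106). NSUN2 (log2 0.38, 0.00619) and ALKBH8 (0.42, 0.0418) were among those that passed in that fit, and TRMT112, outside the rule, was lower in it (-0.28, 0.0349). What lies behind the trend was not tested.

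**Figure D4:**
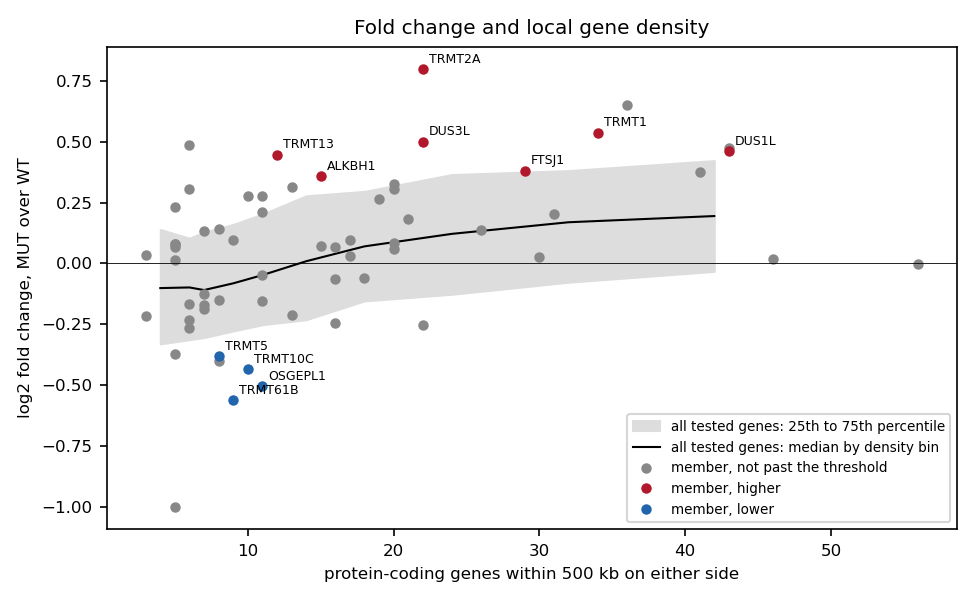
Log2 fold change (MUT over WT) against the number of protein-coding genes within 500 kb on either side, for the members reported here (points) and for all tested genes (line: median by density bin; grey band: 25th to 75th percentile). The 4 members that fell lie at 8 to 11 genes, and the 7 that rose at 12 to 43. The line for all genes climbs from left to right, and the members that rose lie above it and those that fell below it.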

How the data were processed

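Ribosome footprints were counted in 2 WT and 3 MUT libraries. The deposited values are raw counts per gene, not normalized by the authors. The submitters' processing notes name the build hg38 and the tools STAR 2.5.2b, cutadapt 4.6, DESeq2 1.42.0 and FastQC 0.12.1, with no roles. Which counter, annotation and strand setting made the table, and the handling of multi-mapped reads, were not given in the sources used here. By gene bounds, 21 of the 64 members overlap another counted protein-coding gene. Where such genes overlap, their reads may be split between them. A deposited sheet of sample labels and the RNA-seq were not analysed here.

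Counts were tested over the whole table in R 4.3.3 with edgeR 4.0.16 (filterByExpr with minimum count 10 and minimum total 15, TMM factors from 0.9588 to 1.026, quasi-likelihood F test, 3 residual degrees of freedom). Benjamini-Hochberg adjustment covered all 11991 genes. Log2 fold changes are MUT over WT, with standard errors from the F statistic. CPM used TMM-scaled library sizes. Gene positions came from NCBI's table for GRCh38.p14, where 17249 names matched and 48 did not. Library totals were 2095217 and 3128144 in WT and 3076137, 3755991 and 3821176 in MUT.

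The members, the role groups, the list of 40 further genes and the tests were chosen with earlier results of these data known. All members past the threshold are named, with the highest-CPM and the untested members of each role, and the called genes of the further list. Other named members were added after their values were seen. One member is counted in the totals but not reported here by name. On simulated counts for this comparison (11991 genes, 50 changed at each size), the share found was 14% for 1.25-fold changes, 56% for 1.5-fold, 86% for 2-fold and 94% for 3-fold. Only 128 genes were called there, against 2747 in the data, and fewer changed genes make the adjustment stricter. The simulated spread also followed a trend with level, without differences between genes. These shares therefore need not hold for the reported test. Alternatives were other scalings, DESeq2 1.42.0, limma-voom (limma 3.58.1), robust dispersion, other count filters, each library left out, a replicate block, and removal of the trend of gene span and density (splines with 4 degrees of freedom each).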

Additional observations from a re-analysis of the deposited data

How the results depend on the processing

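No called gene of either list changed direction under any of the 15 alternative fits, while 20 of 63 members, all uncalled, did in at least 1. TRMT2A and RPUSD1 passed in all of them. Over all genes, where 1203 were higher and 1544 lower, DESeq2 called 610 and 953, and leaving out 1 library gave 509 to 1089 higher and 732 to 1339 lower. With upper-quartile scaling the split was 1558 and 1209, and with library size only 1756 and 1040, so the balance of rises and falls is not settled. Among the members, library size only gave 11 higher, and DESeq2 gave 3 higher and 1 lower. Leaving out 1 library gave 2 to 7 higher and 1 to 5 lower. Of the further tRNA modification genes, 3 were higher in DESeq2, 9 with the replicate block and 3 with the trend of gene span and density removed, and 2 to 5 higher and 1 to 4 lower with 1 library left out. The members' median log2 fold change of 0.071 was 0.12 with upper-quartile scaling, 0.14 with library size only, 0.086 with no count filter, 0.057 with the replicate block and 0.040 without the density trend, and 0.060 to 0.078 with 1 library left out. The median over all genes was itself 0.0482 and 0.0745 under the first 2 of these. With no count filter it was 0.0254, with the replicate block 0.000664 and without the density trend -0.016. The further genes' median of 0.14 was 0.21 with library size only and 0.067 without the trend. Fits with 1 library left out also have fewer libraries to test with. The causes of these shifts were not tested.

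The replicate numbers shared by both groups do not pair the libraries by any label. Deviations of same-numbered libraries from their group means correlated at 0.0797 and 0.146 across genes. With 2 WT libraries those deviations mirror each other, so these values are not separate and cannot decide whether libraries were paired. With the replicate block 8 members were higher and 4 lower, and over all genes 1529 and 1909, with ALKBH1 and TRMT13 among the calls lost. MUT replicate 3 has no WT library of the same number, so in that fit it adds nothing to the group difference. Leaving out MUT replicate 3 in edgeR's test also ended the calls of ALKBH1 (adjusted p 0.144) and TRMT13 (0.184), so their loss need not reflect pairing. Depth limits the thinly counted CTU1, TYW1, NSUN7 and ADAT3 (8 to 52 counts a library), whose standard errors were 0.303 to 0.456.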
